A study of Mus musculus with 6 samples.

Results

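The genes described here encode the DNA damage kinases, the proteins that sense and process broken DNA ends, and the machinery of homologous recombination, end joining and the Fanconi pathway. They were taken by gene symbol from a list of 44 names, and 38 of the 16095 genes in the table carried one of these symbols. Brca1, Bard1, Rad51b, Xrcc3, Exo1 and Claspn were not matched by symbol and were not analysed here. Fanci averaged 5.53 normalized counts over the 6 libraries, below the minimum of 10 set for testing, so 37 genes were tested.

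The libraries came from mouse kidney epithelial cells that were sorted after digestion of the kidney with an EpCAM antibody and the signal of the KFP reporter. The 3 control libraries were from Trf1+/+ mice and the 3 Terf1_flox libraries from Trf1 flox/flox mice, homozygous for a floxed allele of Terf1, the gene of the telomere protein TRF1. All mice of both groups, males and females, carried the KFP reporter and a tamoxifen-inducible Cre (CreERT2) under the Ksp-cadherin promoter, which is active in renal tubular epithelium. All received tamoxifen 3 times a week for 8 weeks from an age of 6 to 8 weeks. The labels do not say how many mice went into each library, so the p-values measure the spread between libraries, which may be in part technical.

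TRF1 is a subunit of shelterin, the complex that keeps chromosome ends from being read as DNA breaks, and its loss is known to cause replication problems and damage signals at telomeres. The kinases ATM and ATR start that signal, ATM at double-strand breaks and ATR at single-stranded DNA coated by RPA, and they pass it to CHK2 and CHK1. A break can be joined directly by the Ku, DNA-PKcs and ligase IV pathway, which works throughout the cell cycle, or repaired by homologous recombination, which needs resected ends and a sister chromatid. Most of these proteins are controlled by phosphorylation, ubiquitylation and recruitment, none of which an RNA count measures.

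The libraries held between 13582140 and 17680986 reads, and 1 read was worth between 0.789 and 1.09 normalized counts, the library-scaled unit of all levels below. Terf1 itself checked the labels: the control libraries held 530, 486 and 664 and the Terf1_flox libraries 62.0, 24.6 and 25.3, with no overlap (log2 fold change -3.99 ± 0.61, SE; limma adjusted p = 0.0814; exact two-sided permutation p = 0.1, the smallest that 3 against 3 libraries allow). The 10 markers of the distal nephron summed to 268288 to 310973 in the controls and 193298 to 248705 in Terf1_flox, without overlap. Of these markers 8 had estimates below 0, against 52.8% of all genes tested. Umod, Epcam, Atp6v1b1 and Kcnj1 were lower without overlap, while Slc12a1 was higher without overlap, together 5 of 10 (50.0%) against 21.1% of all genes. DESeq2 called the former, 4 of 10, against 5.21% of all genes. In limma 0 of 10 were called, and 5 (50.0%) were below an unadjusted p of 0.05, against 14.1% of all genes. The proximal tubule markers summed to 575 to 1459 and 708 to 3703, the macrophage and monocyte markers to 21 to 146 and 18.5 to 149, and the erythroid markers to 190 to 746 and 151 to 554. The 2 lymphocyte markers matched of 9 summed to 4.74 to 17.2 and 19.6 to 29.3, and the part of other cells in the results below was not tested. None of the endothelial (6) or podocyte (5) markers was matched, and Col3a1 was the only one of 7 fibroblast and pericyte markers that was, at 1.76 to 14.2 and 3.04 to 15.2.

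No break repair gene differed between the groups at the threshold. In limma, with p-values adjusted over all 14822 genes tested, 0 of 37 passed an adjusted p of 0.05, and their adjusted p-values lay between 0.268 and 0.992. Over all genes that share was 0.0% as well, and edgeR and DESeq2 also called 0 of the 37, although DESeq2 called 5.21% of all genes; it gave no adjusted p for Fanca and Fancd2. At an unadjusted p below 0.05 only Xrcc6 passed in limma, 1 of 37 or 2.70% against 14.1% of all genes tested, and it was on the lower side, where the share of all genes was 8.43%; on the higher side it was 0 of 37 against 5.7%. edgeR and DESeq2 each put 2 of the 37 below that limit, Xrcc6 and Rif1, against 13.4% and 15.9% of all genes. After correction for transcript GC content and length, Xrcc6 no longer passed the unadjusted limit and Atrx did, again 1 of 37, against 11.5% of all genes with a transcript. The limma count was 0 without control replicate 2 or without control replicate 3, and 2 without Terf1_flox replicate 1 or without Terf1_flox replicate 3. The share of all genes without each of these libraries is not given here, so these counts cannot be read against it.

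The values of the groups did not overlap for 3 of the 37 genes, 8.11%, against 21.1% of all genes tested. These were Trp53bp1 and Mdc1 on the higher side (10.3% of all genes) and Xrcc6 on the lower side (10.8%). With any 1 library left out, 5 to 8 genes did not overlap (13.5% to 21.6%), against 28.6% to 32.3% of all genes. The log2 fold change (Terf1_flox over control, on log2 of the normalized count plus 1) was above 0 for 12 genes and below 0 for 25, with a median of -0.28, beside a median of -0.08 and 52.8% below 0 over all genes tested. With equal upper quartiles the split was 16 above and 21 below with a median of -0.16, and with quantile normalization 17 and 20 with -0.12, while these scalings put the median of all genes at 0.04 and 0.06. Equal library totals gave 11 and 26 with -0.45, beside -0.24 for all genes. The median of the 37 genes was -0.13 without Terf1_flox replicate 2, -0.17 without Terf1_flox replicate 1 and -0.45 without control replicate 3. Large estimates were as common as elsewhere: 13 of 37 genes (35.1%) and 38.2% of all genes tested lay beyond 1 log2 unit in either direction.

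**Figure D1:**
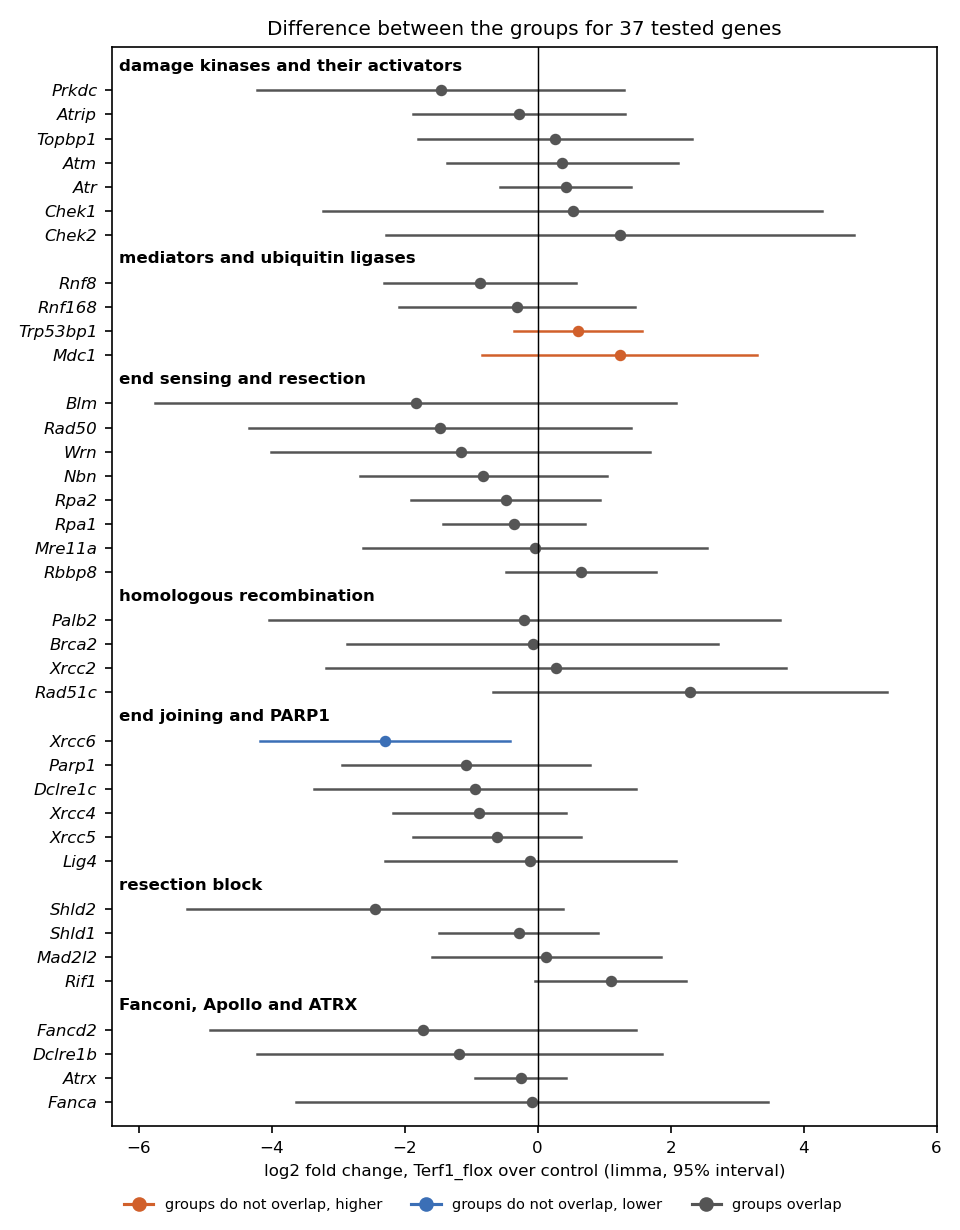
Log2 fold change of each of the 37 tested genes (Terf1_flox over control, limma, x axis) with its 95% interval, grouped by role; colour marks the 3 genes whose groups did not overlap. Of the 37 intervals only that of Xrcc6 (-4.17 to -0.41) leaves out 0, and the narrowest, of Atrx, Trp53bp1 and Atr, still span more than 1 log2 unit.

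The apical kinases were present in every library. Atm, the kinase of double-strand breaks, held 253, 105 and 122 normalized counts in the controls against 127, 100.6 and 551 in Terf1_flox. Terf1_flox replicate 3 was the highest of the 6 and the other Terf1_flox libraries lay within the control range or just under it, so the groups overlapped (log2 fold change 0.37 ± 0.76, SE). Without that library the estimate was -0.39. Atr, the kinase of replication stress, was steadier, at 364, 205 and 428 in the controls against 411, 447 and 417 in Terf1_flox. Its 3 Terf1_flox values lay close together, at the top of the control range or just above it (0.42 ± 0.43, 95% interval -0.56 to 1.40), and the estimate was -0.04 after correction for transcript GC content and length. Atrip, which brings ATR to RPA-coated DNA, held 108, 73.4 and 65.5 in the controls against 64.2, 86.2 and 52.6 in Terf1_flox (-0.28 ± 0.70; 0.40 after that correction).

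Prkdc, which encodes the DNA-PK catalytic subunit, showed how far 1 library could stand from its group. Control libraries held 230, 340 and 208, and Terf1_flox libraries 308, 252 and 9.11. The first pair of Terf1_flox values lay inside the control range, while replicate 3 rested on 9 reads, with an exact Poisson 95% interval of 4.12 to 17.1 reads that covers counting error only. The log2 fold change was -1.46 ± 1.21 with all libraries and 0.14 without Terf1_flox replicate 3.

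The effector kinases were more scattered between libraries, with within-group SDs of 2.45 log2 units for Chek1 and 2.03 for Chek2, against 1.05 for Atm and 0.40 for Atr. Chek1, the target of ATR, held 70.4, 72.4 and 0.789 in the controls against 90.3, 9.24 and 29.3 in Terf1_flox. Both groups thus held a library near the top and one far below it (0.53 ± 1.65). Without control replicate 3, where 1 read was found, the estimate was -1.25. Chek2, the target of ATM, held 26.4, 10.5 and 1.58 in the controls against 131, 5.13 and 12.1 in Terf1_flox; only replicate 1 of the latter stood above the controls (1.24 ± 1.55, or -0.06 without it). Topbp1, an activator of ATR, held 110, 135 and 72.6 in the controls against 284, 30.8 and 214 in Terf1_flox, which lay on both sides of the control range (0.27 ± 0.90; -0.33 without Terf1_flox replicate 1 and -0.12 without replicate 3).

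The proteins that spread the break signal on chromatin included both genes whose Terf1_flox values all lay above the controls. Trp53bp1, which encodes 53BP1, the protein that holds back resection and favours end joining, held 222, 244 and 304 in the controls against 360, 326 and 497 in Terf1_flox. The lowest Terf1_flox library was just above the highest control, and the group means of 257 ± 42.5 and 394 ± 90.3 (SD, n = 3 each) differed by 0.61 ± 0.42 on the log2 scale (limma adjusted p = 0.558). Mdc1, the scaffold that binds phosphorylated histone H2AX, held 11.4, 39.1 and 30.0 in the controls against 47.9, 64.7 and 61.7 in Terf1_flox (1.23 ± 0.91, limma adjusted p = 0.584; 0.73 without control replicate 1). Both estimates kept their sign under every alternative in which the gene was tested, and neither passed in any of them. Of the ubiquitin ligases that act between them, Rnf8 held 150, 340 and 203 in the controls against 224, 84.2 and 90.1 in Terf1_flox (-0.86 ± 0.63). Rnf168 held 59.8, 69.6 and 52.9 in the controls against 55.5, 30.8 and 66.8 in Terf1_flox, where only replicate 2 lay outside the control range (-0.31 ± 0.78; 0.01 without it).

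The 3 genes of the MRE11-RAD50-NBS1 complex, a sensor of broken ends and the activator of ATM, varied together at their lower end. Rad50 held 54.5, 268 and 680 in the controls against 12.0, 207 and 176 in Terf1_flox. Mre11a, the nuclease, held 27.3, 33.4 and 151 in the controls against 14.1, 56.4 and 156 in Terf1_flox. Nbn, the subunit that binds ATM, held 181, 393 and 262 in the controls against 40.2, 282 and 296 in Terf1_flox. All 3 genes had the lowest of their 6 values in Terf1_flox replicate 1, and the lowest of their control values in control replicate 1; this pattern was noticed after the values were seen and was not tested. For Rad50 the Terf1_flox replicate 1 value rested on 11 reads (exact Poisson 95% interval 5.49 to 19.7). The log2 fold changes were -1.47 ± 1.26, -0.04 ± 1.13 and -0.82 ± 0.82, and without Terf1_flox replicate 1 they were -0.17, 0.85 and 0.12.

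Among the genes of end resection and of the DNA strands it leaves, Rbbp8, which encodes CtIP, the partner of MRE11 that starts resection, was the highest in normalized counts. It held 656, 301 and 783 in the controls against 1425, 572 and 744 in Terf1_flox, where replicate 1 was the highest of all and the others lay within the control range (0.66 ± 0.49). The RecQ helicase gene Wrn held 306, 625 and 95.5 in the controls against 14.1, 425 and 260 in Terf1_flox (-1.15 ± 1.25). Its lowest value was again that of Terf1_flox replicate 1, from 13 reads, and the estimate without that library was 0.33. Blm, the other RecQ helicase, held 22.9, 62.0 and 0.789 in the controls against 5.44, 8.21 and 0 in Terf1_flox. A count of 0 reads in Terf1_flox replicate 3 allows up to 3.04 normalized counts, the worth of 3 reads. The Terf1_flox values of Blm were all low, but so was control replicate 3, and the groups overlapped (-1.83 ± 1.72).

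The RPA genes, whose products coat single-stranded DNA, varied less between libraries than the helicases, with within-group SDs of 0.32 log2 units for Rpa1 and 0.64 for Rpa2, against 2.08 for Wrn and 2.24 for Blm. Rpa1, the large subunit, held 311, 257 and 231 in the controls against 151, 233 and 251 in Terf1_flox (-0.35 ± 0.47). Rpa2 held 265, 185 and 113 in the controls against 135, 77.0 and 194 in Terf1_flox (-0.48 ± 0.63; 0.004 with GC content and length corrected). Of the 8 tested genes of end sensing and resection, 7 had estimates below 0, as with equal library totals; with equal upper quartiles, with quantile normalization and after the GC content and length correction 6 of 8 did. Without Terf1_flox replicate 1 only 4 of 8 did, and the median went from -0.65 to -0.003; over all genes tested 52.8% of estimates were below 0.

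Homologous recombination genes had few reads. Brca2, a central gene of homologous recombination, held 17.6, 13.3 and 156 in the controls against 46.8, 56.4 and 12.1 in Terf1_flox, and control replicate 3 alone set the control mean (-0.07 ± 1.23; 1.02 without it). Palb2, the link between BRCA1 and BRCA2, held 48.4, 26.7 and 2.37 in the controls against 7.61, 2.05 and 114 in Terf1_flox (-0.20 ± 1.69). The groups overlapped in both genes, with 1 library above the rest.

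Rad51c and Xrcc2 also serve homologous recombination. Rad51c held 3.52, 7.63 and 2.37 in the controls against 38.1, 55.4 and 6.07 in Terf1_flox, from 3 to 8 reads in each control library and 35, 54 and 6 in the Terf1_flox libraries. Replicates 1 and 2 of Terf1_flox stood above every control while replicate 3 lay between the control values (2.30 ± 1.30, limma adjusted p = 0.469), the highest estimate among the 37 genes. Xrcc2 held 51.9, 9.53 and 3.95 in the controls against 83.8, 3.08 and 13.2 in Terf1_flox, both groups with 1 high library and the rest low (0.28 ± 1.52; -0.88 without Terf1_flox replicate 1 and -0.48 without control replicate 3).

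The 6 end joining genes of the list, Parp1 among them, all had estimates below 0 with the deposited scaling. This also held for 6 of 6 with equal library totals and after the GC content and length correction. It held for 5 of 6 with equal upper quartiles or quantile normalization, where Lig4 was at 0.01 and 0.05. Over all genes tested 52.8% of limma estimates were below 0. The median of the 6 genes was -0.91 in limma and closer to 0, at -0.61, in both edgeR and DESeq2, each with 6 of 6 below 0. Without Terf1_flox replicate 3 the median was -0.35, with 5 of 6 below 0, and without the other libraries in turn it lay between -1.33 and -0.69, with 5 or 6 below 0. Only Xrcc6 among them had groups that did not overlap. Xrcc6 encodes Ku70, which with Ku80 binds broken ends and is also found at telomeres. It held 195, 435 and 435 in the controls against 20.7, 162 and 89.1 in Terf1_flox, so that every Terf1_flox value lay below the lowest control. The means were 355 ± 138 and 90.6 ± 70.8 (SD, n = 3 each). The log2 fold change was -2.29 ± 0.82, which is 4.89-fold lower (limma adjusted p = 0.268; DESeq2 adjusted p = 0.125; edgeR adjusted p = 0.344). The size of that difference leaned on Terf1_flox replicate 1, with 19 reads: without it the estimate was -1.46, and after correction for GC content and length it was -1.67.

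Xrcc5, which encodes the partner subunit Ku80, differed less. It held 311, 641 and 255 in the controls against 182, 424 and 185 in Terf1_flox. Replicates 1 and 3 of Terf1_flox lay below the controls and replicate 2 among them (-0.61 ± 0.55, 95% interval -1.87 to 0.65). Dclre1c, which encodes the Artemis nuclease, held 114, 225 and 90.0 in the controls against 12.0, 194 and 131 in Terf1_flox, where only replicate 1 lay below the controls (-0.94 ± 1.06; 0.26 without it).

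Xrcc4 and Lig4 encode the ligase complex that seals the ends. Xrcc4 held 757, 417 and 910 in the controls against 472, 614 and 160 in Terf1_flox (-0.88 ± 0.57). Lig4 held 53.7, 246 and 372 in the controls against 404, 191 and 50.6 in Terf1_flox, nearly the same set of values in both groups (-0.11 ± 0.96). Parp1, the break sensor that makes poly(ADP-ribose) and serves single-strand break repair and a back-up form of end joining, held 219, 447 and 327 in the controls against 356, 240 and 39.5 in Terf1_flox (-1.07 ± 0.82). In Xrcc4 and Parp1 the Terf1_flox libraries other than replicate 3 lay within the control range, and without replicate 3 the estimates were -0.29 and -0.12. For Xrcc4, Lig4, Parp1 and Prkdc alike, Terf1_flox replicate 3 held the lowest of the 6 values.

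**Figure D2:**
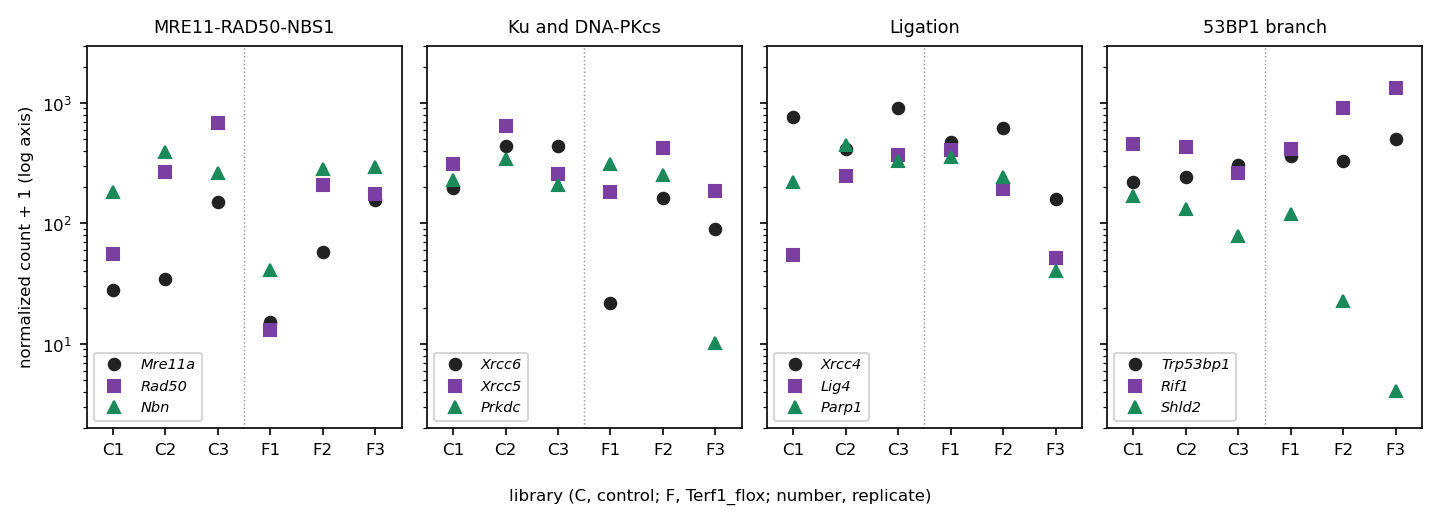
Normalized count plus 1 (log axis) of 12 genes in each library, in panels of 3 genes with related roles. Parp1 is drawn beside the ligase complex genes Xrcc4 and Lig4. C marks control and F Terf1_flox libraries, and the number is the replicate. Terf1_flox replicate 1 is lowest for Mre11a, Rad50, Nbn, Xrcc5 and Xrcc6, and Terf1_flox replicate 3 for Prkdc, Xrcc4, Lig4, Parp1 and Shld2.

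The genes that act with 53BP1 to block resection did not share a direction. Rif1, which binds 53BP1 at breaks and also controls the timing of replication, held 454, 427 and 262 in the controls against 412, 903 and 1340 in Terf1_flox. Replicates 2 and 3 of Terf1_flox lay above every control and replicate 1 among them. The means were 381 ± 104 and 885 ± 464 (SD, n = 3 each). The log2 fold change was 1.10 ± 0.50 (limma adjusted p = 0.37; adjusted p of 0.132 in DESeq2). It was 0.56 after the GC content and length correction and 0.72 without Terf1_flox replicate 3. Rif1 had a GC content of 39.3%, the lowest among the 37 tested genes, and over all genes tested the fifth with the lowest GC content had a median of 0.37.

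Shld2, a subunit of the shieldin complex that RIF1 recruits, had the lowest estimate of the list. It held 168, 130 and 78.1 in the controls against 119, 21.6 and 3.04 in Terf1_flox, the last from 3 reads (-2.44 ± 1.24, limma adjusted p = 0.418; -1.21 without Terf1_flox replicate 3 and -3.66 without replicate 1). Shld1, another subunit of the complex, held 229, 324 and 225 in the controls against 152, 168 and 361 in Terf1_flox (-0.28 ± 0.53). Mad2l2, which encodes REV7, held 76.5, 263 and 134 in the controls against 64.2, 218 and 253 in Terf1_flox (0.13 ± 0.76). The groups overlapped in both genes.

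Fanca, Fancd2 and Fanci, of the Fanconi pathway that repairs DNA crosslinks, had few reads. Fanca held 5.28, 1.91 and 22.1 in the controls against 2.18, 2.05 and 35.4 in Terf1_flox, each group with 1 library above the rest (-0.09 ± 1.56). Fancd2 held 4.40, 7.63 and 46.6 in the controls against 3.26, 6.16 and 1.01 in Terf1_flox (-1.72 ± 1.41; -0.79 without control replicate 3). Fanci, the partner of FANCD2, held 13.2, 1.91 and 11.8 in the controls against 1.09, 4.11 and 1.01 in Terf1_flox and was not tested. These 3 genes had 1 to 59 reads per library.

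Among the genes with a known place at telomeres, Dclre1b encodes Apollo, a nuclease that the shelterin protein TRF2 brings to chromosome ends. It held 33.4, 132 and 76.6 in the controls against 111, 3.08 and 66.8 in Terf1_flox. Replicate 2 of Terf1_flox, with 3 reads, stood alone below the controls (-1.18 ± 1.34; 0.30 without it). Atrx, a chromatin remodeller whose loss is linked to telomere maintenance without telomerase, was the most abundant gene of the list in normalized counts and had the smallest SE. It held 3367, 2584 and 2970 in the controls against 2174, 3773 and 1863 in Terf1_flox (means 2973 ± 391 and 2603 ± 1024, SD, n = 3 each). Its Terf1_flox values lay on both sides of the control range (-0.25 ± 0.30, 95% interval -0.93 to 0.43). After correction for GC content and length the estimate for Atrx was -0.79 (limma adjusted p = 0.39).

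**Figure D3:**
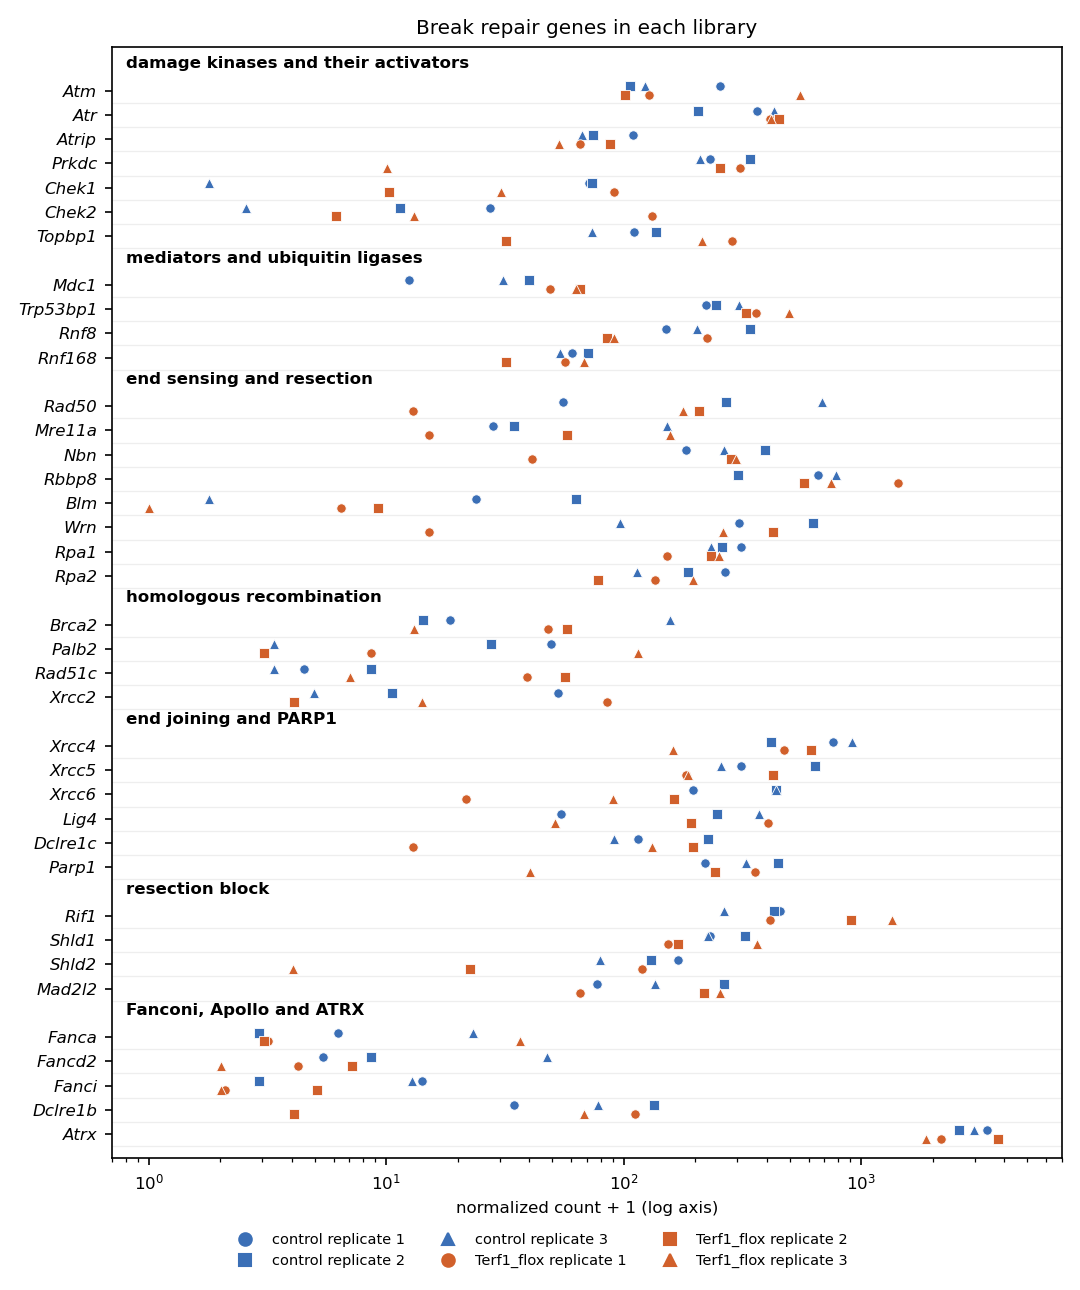
Normalized count plus 1 of the 38 genes in each of the 6 libraries (log axis), ordered by role; blue marks control and orange Terf1_flox, and the symbol gives the replicate. The colours are mixed for most genes, and single libraries stand far from the rest, such as Terf1_flox replicate 3 for Prkdc at 9.11 and control replicate 3 for Chek1 at 0.789.

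Levels can be compared between genes only per transcript length, here as normalized counts per kilobase of the longest annotated coding transcript. On this scale the median of the 37 tested genes in control libraries was 32.0, beside 54.1 over 14489 genes tested that had a length. End joining genes had a median level of 96.6 per kilobase in control libraries, with Xrcc4 the highest of the list at 451 ± 164 (SD, n = 3). Atrx followed at 289 ± 38.1, Shld1 at 176 ± 38.2, Rbbp8 at 165 ± 70.9 and Xrcc5 at 157 ± 81.5. The spreads of Xrcc4 and Atrx overlap, as do those from Shld1 to Xrcc5. The genes of end sensing and resection had a median of 59.8, the damage kinases and their activators 20.3 and the homologous recombination genes 6.27. At the bottom were Rad51c at 1.14 ± 0.70, Fanci at 1.93 ± 1.33, Fanca at 2.18 ± 2.41 and Fancd2 at 3.54 ± 4.26, which do not differ beyond their spread. In Terf1_flox libraries the medians were 48.7 for end joining, 39.5 for end sensing and resection, 26.3 for the kinases and 9.34 for homologous recombination. The resection block genes had a median of 73.8 in control and 110 in Terf1_flox libraries, below end joining in the first and above it in the second. Rif1 went from 44.8 to 104 and Mad2l2 from 103 to 116, but Shld1 from 176 to 155 and Shld2 from 37.8 to 14.4. The median log2 fold change of these 4 genes was -0.08, with 2 above and 2 below 0.

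The spread between libraries of 1 group was above that of all genes in some comparisons and near it in others. Among the 21 genes with a mean of 100 to 1000 normalized counts, the within-group SD had a median of 0.99 log2 units, beside 0.74 over the 6926 genes of that range. Among the 15 genes with a mean of 10 to 100 it was 1.77, beside 1.83 over 5941 genes. The steadiest gene was Trp53bp1, with an SD of 0.28, and the most variable Chek1, with 2.45. In Terf1_flox libraries the highest value was at least 4 times the lowest for 22 genes (59.5%; 42.5% of all genes tested), and in control libraries for 12 genes (32.4%; 34.4% of all genes). It was at least 10 times the lowest for 12 genes in Terf1_flox libraries (32.4%, against 28.0% of all genes). In control libraries this held for 9 genes (24.3%, against 21.8% of all genes). Whether the groups differ in this spread was not tested.

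The lowest of the 6 values fell in a Terf1_flox library for 28 of 37 genes (75.7%), beside 53.5% of the 13781 genes tested that had a single lowest library. These were spread over the group: Terf1_flox replicate 1 was lowest for 10 genes (27.0%), replicate 2 for 8 (21.6%) and replicate 3 for 10 (27.0%). Over all genes with a single lowest library these shares were 17.6%, 18.7% and 17.2%. Each gene had a single lowest library, so the sets share no gene by construction. Replicate 1 had the MRE11 complex, both Ku genes, Wrn, Rpa1, Dclre1c, Shld1 and Mad2l2. Replicate 3 had Prkdc, Xrcc4, Lig4, Parp1, Atrx, Atrip, Blm, Brca2, Shld2 and Fancd2. Replicate 3 also had the highest sum of proximal tubule markers, 3703, whose part in these values was not tested. The highest value fell in a control library for 20 of 37 genes (54.1%), against 47.5% of all genes with a single highest library. For 11 of them (29.7% of the 37) it was control replicate 2, against 17.2% of all genes. Genes were not tested for this pattern, and it was described after the values were seen.

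**Figure D4:**
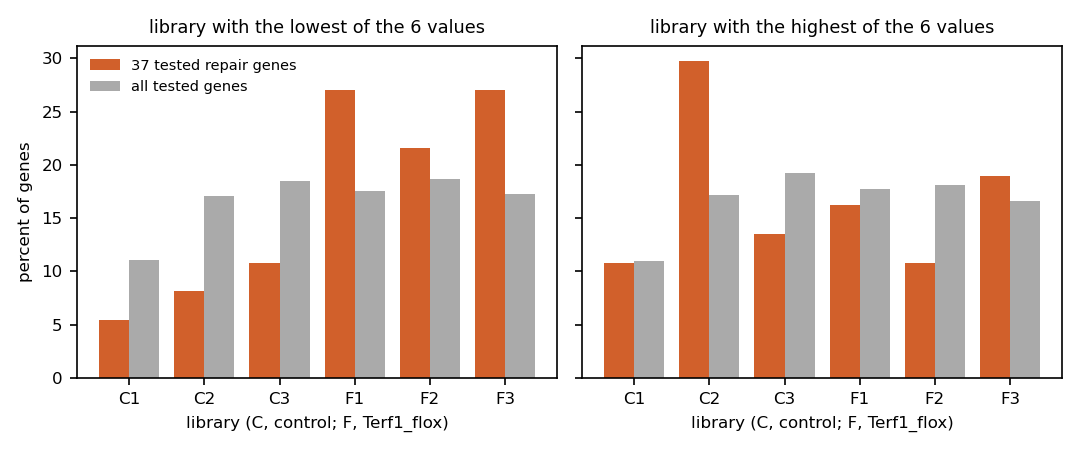
Percent of genes (y axis) for which each library (x axis) held the lowest (left) or the highest (right) of the 6 values, for the 37 tested repair genes (orange) and for all genes tested (grey). Terf1_flox replicates 1 and 3 each held the lowest value for 27.0% of the repair genes (17.6% and 17.2% of all genes). Control replicate 2 held the highest for 29.7% (17.2% of all genes).

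The transcripts of the repair genes were long and of moderate GC content. The median longest coding transcript was 4.49 kilobases for the 37 genes and 2.88 over 14489 genes tested, and the median GC content was 45.6% and 48.9%. Over all genes tested the log2 fold change went with GC content, from a median of 0.37 in the lowest of 5 equal bins to -0.49 in the highest. The 25 repair genes of the lowest 2 bins had medians of -0.07 and -0.71, where all genes of those bins had 0.37 and 0.07. After correction for GC content and length the median of the 37 genes was -0.21, with 13 above 0, and that of all genes 0.07; 0 genes of the list passed.

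The wider pathway was followed in 70 other repair genes, of which 61 were matched and 58 tested. In limma 0 of 58 passed an adjusted p of 0.05, and 6 (10.3%) were below an unadjusted p of 0.05, beside 14.1% of all genes, 2 on the higher and 4 on the lower side. The groups did not overlap for 8 (13.8%), beside 21.1% of all genes. edgeR called 0 and had 5 (8.62%) under that unadjusted limit, against 13.4% of all genes. DESeq2 called Rpa3, on the higher side, and Babam1, on the lower side, which is 3.45% against 5.21% of all genes. The median log2 fold change was -0.49, with 40 of 58 below 0 (-0.28 without control replicate 3, and -0.72 with 45 below 0 without control replicate 2; 36 with equal upper quartiles or quantile normalization, and 33 of 57 after the GC content and length correction).

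Babam1, a subunit of the BRCA1-A complex that recognises ubiquitin at breaks, held 581, 575 and 727 in the controls against 204, 189 and 185 in Terf1_flox. The groups were far apart and each was tight, and they differed by -1.69 ± 0.39 on the log2 scale (adjusted p of 0.134 in limma and 0.00457 in DESeq2). The estimate was -1.13 once GC content and length were corrected for. Rpa3, the small RPA subunit, held 471, 268 and 651 in the controls against 1186, 982 and 1115 in Terf1_flox (1.33 ± 0.40, adjusted p of 0.203 in limma and 0.0424 in DESeq2). With the correction it was 0.70. Unlike Rpa3, its partners Rpa1 and Rpa2 had estimates below 0; the difference between them was not tested. Tipin, which steadies stalled forks and helps ATR signalling, held 441, 343 and 319 in the controls against 32.6, 151 and 238 in Terf1_flox (-1.77 ± 0.75).

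H2ax, the histone variant phosphorylated at breaks, held 21.1, 30.5 and 285 in the controls against 0, 8.21 and 11.1 in Terf1_flox, without overlap (-3.60 ± 1.51, limma adjusted p = 0.33). Eme1, a subunit of a junction-cutting nuclease, held 15.0, 40.0 and 15.8 in the controls against 1.09, 0 and 1.01 in Terf1_flox (-3.78 ± 1.29), so that each Terf1_flox library held at most 1 read. On the higher side, Fancg of the Fanconi core complex held 29.9, 0 and 0.789 in the controls against 8.70, 229 and 127 in Terf1_flox (4.11 ± 1.75). The remaining genes named by the rule were Uimc1, whose product RAP80 binds ubiquitin at breaks, at 0.59 ± 0.36, and the polymerase gene Poll, at 2.73 ± 1.79.

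Many recombination and Fanconi genes are highest in S phase, so genes of DNA replication and division were read beside them. Of 26 such genes 17 were matched and 15 tested, and in limma 0 passed and 0 were below an unadjusted p of 0.05; edgeR and DESeq2 each put 3 (20.0%) below it, against 13.4% and 15.9% of all genes, and DESeq2 called 1 (6.67%), Rrm2, against 5.21%. Their summed level was 812 to 2839 in the controls and 1511 to 2208 in Terf1_flox. Rrm2, a subunit of ribonucleotide reductase, held 357, 22.9 and 455 in the controls against 21.8, 36.9 and 50.6 in Terf1_flox (-2.15 ± 1.17, DESeq2 adjusted p = 0.0468). Gins2 (-3.17 ± 1.79), Cdk1 (-2.13 ± 1.74) and Mcm7 (-0.51 ± 0.74) also had estimates below 0. Those of Ccne2 (3.402 ± 1.77), Ccna2 (3.18 ± 1.80), Mcm2 (2.07 ± 1.52) and Ccnb1 (1.63 ± 1.76) were above 0. Ccna2, the cyclin of S phase and G2, held 0.880, 0.953 and 6.32 in the controls against 166, 1.03 and 57.7 in Terf1_flox. Replicate 1 of Terf1_flox thus held the highest value of Ccna2 (166) but the lowest of Rrm2 (21.8). Chek1, Chek2, Topbp1, Xrcc2, Rbbp8 and Lig4 were highest in the same library, 6 of 37 genes (16.2%) against 17.8% of all genes. The part of the cell cycle in the values of those genes was not tested. In these bulk libraries fewer cells of a kind and less RNA per cell cannot be told apart.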

How the data were processed

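RNA was measured in 3 control and 3 Terf1_flox libraries; per the labels' protocols, they were made from sorted kidney epithelial cells with a kit for low input. The authors deposited normalized counts, a signal of reads scaled per library. DESeq2 and build GRCm39 are named in the submitters' processing notes; the aligner, counting tool, use of strand and filter on genes stay unnamed (not given in the sources used here). Without strand, reads of overlapping genes cannot be told apart. Divided by the smallest step of its library, every value came out whole (100% to within 0.01 of a read), which recovered the reads.

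Libraries were grouped by title. Main test: limma 3.58.1 (R 4.3.3, mean-variance trend, two-sided, Benjamini-Hochberg adjustment over 14822 genes) on log2 of the normalized count plus 1, for genes with a mean of at least 10; ± after a log2 fold change is its SE. edgeR 4.0.16 (quasi-likelihood) and DESeq2 1.42.0 (Wald) were run on the recovered reads as alternatives, beside other pseudocounts, filters, scalings, a replicate block, leaving out each library, and a spline correction (4 degrees of freedom each) for GC content and length of the longest coding transcript in GENCODE M21 (GRCm38; all 38 genes had one). The correction uses the longest transcript because a median over annotated transcripts gives fragments for genes such as Parp1. Tests were tried on simulated data. Members and lists were chosen with earlier results of these data known. Every member was to be described; of the other repair and the replication genes, up to 4 per direction with the smallest limma p. Coordinates are not given, because no annotation of the files' build was used. Figures were drawn with matplotlib 3.10.9.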

Additional observations from a re-analysis of the deposited data

How the results depend on the processing

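The 37 genes gave 0 calls under each of the 17 alternatives, and their lowest adjusted p in any was 0.125, that of Xrcc6 in DESeq2. Over all genes, limma called 132 at a minimum mean of 50, 45 with equal library totals and 8 with quantile normalization, DESeq2 called 772, and leaving out any 1 library gave 0; the cause was not tested. Terf1 passed at -3.99 with a mean of at least 50, at -4.17 with equal library totals and at -3.89 in DESeq2. Members with an unadjusted p below 0.05 numbered 2 with a mean of at least 50, equal upper quartiles, quantile normalization, edgeR or DESeq2, and 0 to 2 with 1 library left out, and members whose groups did not overlap 5 to 8. For the S phase genes the unadjusted count was 3 in edgeR, 3 in DESeq2 and 0 to 3 with 1 library left out. Of all genes, 13.4% were below that limit in edgeR and 15.9% in DESeq2. For the other settings of these counts the share of all genes is not given here. The replicate block left the members at 0 calls and 1 unadjusted. Same-numbered libraries did not deviate together (correlations -0.049, 0.0001 and -0.007). With so few libraries these correlations cannot show whether samples were paired, and the labels give no pairing. The estimate kept its sign in every alternative run for 17 of the 37 genes and changed it in at least 1 for 20, in 55 of 620 values. With a pseudocount of 5 the sign changed for Fanca (0.029). With equal library totals the sign changed for Mad2l2 (-0.045). With equal upper quartiles the sign changed for Mre11a (0.081), Brca2 (0.045), Lig4 (0.011) and Fanca (0.017). With quantile normalization the sign changed for Mre11a (0.23), Brca2 (0.15), Palb2 (0.12), Lig4 (0.054) and Fanca (0.46). With edgeR the sign changed for Chek1 (-0.14), Mre11a (0.14), Palb2 (0.68) and Fanca (0.47). With DESeq2 the sign changed for Chek1 (-0.14), Mre11a (0.12), Palb2 (0.69) and Fanca (0.46). With GC content and length correction the sign changed for Atm (-0.017), Atr (-0.040), Atrip (0.40), Rpa2 (0.0040) and Fanca (0.41). With 1 library left out, estimates of these genes ran across 0: Atm from -0.39 to 0.83, Prkdc from -2.33 to 0.14, Chek1 from -1.25 to 1.43, Chek2 from -0.055 to 2.16, Topbp1 from -0.33 to 1.25, Rnf168 from -0.53 to 0.011, Mre11a from -0.84 to 0.85, Nbn from -1.30 to 0.12, Wrn from -2.07 to 0.33, Brca2 from -0.71 to 1.02, Palb2 from -1.70 to 0.92, Xrcc2 from -0.88 to 1.30, Lig4 from -0.93 to 0.70, Dclre1c from -1.69 to 0.26, Mad2l2 from -0.30 to 0.75, Fanca from -1.27 to 0.73 and Dclre1b from -2.09 to 0.30. Depth limits what genes with few reads can show.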
